A study of Ovis aries with 30 samples.

Results

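The genes through which fat cells take up, carry and store fatty acids were followed in epicardial adipose tissue (EAT), the fat that covers the heart, of sheep around birth: LPL, FABP4, PLIN1, PLIN2 and PCK1. They were found by symbol or full name in the annotation of an Agilent sheep expression array, which gave 10 probes of the 15008 on the array and 5 of its 1031 named genes. LPL had 3 probes, FABP4 had 1, and PLIN1, PLIN2 and PCK1 had 2 each. All 10 probes were well above background on all 30 arrays, none was saturated, and all 10 passed the brightness filter that left 12872 probes for testing.

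The 30 arrays hold 1 animal each. The Control fetuses (n = 8) were at term, and their ewes received no cortisol. The CORT fetuses (n = 6), also at term, came from ewes given cortisol at 1 mg/kg/day. The Control lambs (n = 7) were 2 weeks old and came from untreated ewes, and the CORT lambs (n = 9), of the same age, came from ewes given 0.5 mg/kg/day until birth. Per the study's methods the ewes were catheterised on about day 115 of gestation, and the lambs' ewes were infused overnight only. The sample records give day 115 as the start of infusion for both CORT groups. Cortisol was given to the ewe and never to the fetus or lamb. Because the dose differed between the ages, the labels advise against setting CORT fetuses against CORT lambs directly. Both treatments of the lamb study included twins, which the labels do not mark, so all animals were treated as independent.

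Fat cells take fatty acids from the blood and lock them into triglyceride droplets. Lipoprotein lipase, encoded by LPL, sits on the capillary wall and frees fatty acids from circulating lipoproteins. FABP4 is the fatty acid carrier of the adipocyte cytosol. PLIN1 coats the adipocyte's droplet and holds back lipases until hormones signal for release, whereas PLIN2 coats droplets in many cell types. PCK1, the cytosolic phosphoenolpyruvate carboxykinase, acts in the path by which fat makes glycerol 3-phosphate from pyruvate. Glycerol 3-phosphate is the backbone on which fatty acids are esterified. Around birth the fat of sheep turns from a heat-producing depot into a storing one, while milk brings the first large supply of dietary fat.

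The probes are shown because their overlap sets how far several probes of a gene are separate measurements. Letters are printed 5′ to 3′ as the scanner files give them, with bases that both probes of a pair share in capitals. The pair of LPL probes in the coding part shared 20 bases.
LPL A_70_P029922: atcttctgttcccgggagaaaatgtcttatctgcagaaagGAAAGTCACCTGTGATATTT
LPL A_70_P029921: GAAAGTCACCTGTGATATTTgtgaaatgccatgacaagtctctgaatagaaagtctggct
The other LPL probe, A_70_P016916, shared no stretch with either of these, and its first 30 bases are gtgacagtttcactgagccaacttatctga. The PLIN2 probes shared 39 bases, shifted by 21.
PLIN2 A_70_P051347: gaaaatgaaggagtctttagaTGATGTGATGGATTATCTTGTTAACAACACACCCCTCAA
PLIN2 A_70_P051346: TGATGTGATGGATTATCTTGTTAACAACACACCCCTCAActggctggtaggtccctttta
The PCK1 probes were the same 59 bases moved by 1 base, and so were the PLIN1 probes.
PCK1 A_70_P001437: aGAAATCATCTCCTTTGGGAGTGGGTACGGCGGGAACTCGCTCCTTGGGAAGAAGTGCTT
PCK1 A_70_P001436: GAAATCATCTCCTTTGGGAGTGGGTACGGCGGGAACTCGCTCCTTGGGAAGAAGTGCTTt
PLIN1 A_70_P014632: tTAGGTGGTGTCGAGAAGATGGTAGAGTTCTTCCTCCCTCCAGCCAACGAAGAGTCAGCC
PLIN1 A_70_P014631: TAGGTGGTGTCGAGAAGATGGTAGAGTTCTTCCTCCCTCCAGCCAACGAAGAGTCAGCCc
The FABP4 probe was designed on an expressed sequence tag and held no open reading frame over its 60 bases, so its gene name rests on the array's annotation alone. In each gene the brightest probe by its mean stood for the gene: A_70_P029922 for LPL, A_70_P058551 for FABP4, A_70_P014631 for PLIN1, A_70_P051346 for PLIN2 and A_70_P001436 for PCK1.

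Values are normalized intensities on the log2 scale, on which a difference of 1 is a doubling, and differences between groups are log2 changes. The 4 slides that carried the arrays enter several results. Slides 1 and 2 held the fetuses, slides 3 and 4 the lambs, and both treatments were on each slide. Of a list of 13 striated muscle markers, MB (myoglobin) and TNNC2 (a troponin of fast muscle) were measured. TNNC2 was 17.20 in Control fetus 2, against 6.84 to 10.17 in all other animals, so this fetus stood apart, while its MB of 14.79 lay inside the range of the others, 9.61 to 16.89. The mean of the pair ran from 10.33 to 11.75 in the CORT fetuses, 8.24 to 12.48 in the Control lambs and 8.99 to 12.75 in the CORT lambs, and from 9.94 to 11.38 in the Control fetuses other than that animal. Of 10 adipocyte markers other than the 5 genes, LEP, PPARG and CEBPB were measured, and each was well above background on all 30 arrays.

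LPL was higher in Control lambs than in Control fetuses on all 3 of its probes, and it was the only gene of the 5 past the adjusted threshold between term and 2 weeks of age. In Control fetuses LPL ranged from 12.65 to 13.52 with a median of 13.28. In Control lambs it ranged from 14.20 to 15.55 with a median of 14.99. The lowest Control lamb lay 0.69 above the highest Control fetus, so the groups did not overlap. The rise was 1.81 (SE 0.19), or 3.50-fold, from a mean of 13.20 ± 0.32 (SD, n = 7) to 15.01 ± 0.44 (SD, n = 7). Its limma p, adjusted over the 12872 probes, was 2.39e-06. The exact permutation test gave p = 0.000583 (two-sided), the smallest that 3432 splits of 14 values allow. Control fetus 6 is missing on this probe because the scanner software marked its spot as an outlier.

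The other LPL probes had a value for every animal. LPL rose by 1.75 (SE 0.18) on A_70_P029921, with an adjusted p in limma of 1.59e-06, and by 1.44 (SE 0.17) on A_70_P016916, the probe that shares no bases with the others, with an adjusted p in limma of 4.50e-06. Control lambs and Control fetuses did not overlap on either, with gaps of 0.64 and 0.43. Control fetus 2, the animal with the high TNNC2, was also the lowest in LPL, at 12.65. Among Control fetuses it had the lowest mean of LEP, PPARG and CEBPB as well, at 9.80. Without it the LPL change was 1.72. With slide as a random block, the rise was 1.79, with an adjusted limma p of 2.07e-05. No slide held both ages, so this fit cannot separate age from slide.

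Many probes differed between these ages: 41.6% of all tested probes passed the adjusted threshold of 0.05 between Control lambs and Control fetuses, 20.3% as higher in lambs, and on 15.9% of probes the groups did not overlap. Of the 10 probes of the lipid storage genes, 3 passed and 3 were without overlap, all of them LPL. In bulk tissue a change in the number of a kind of cell and a change in RNA per cell cannot be told apart. As the ages were on separate slides, a difference of age and one of slide cannot be told apart either.

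**Figure D1:**
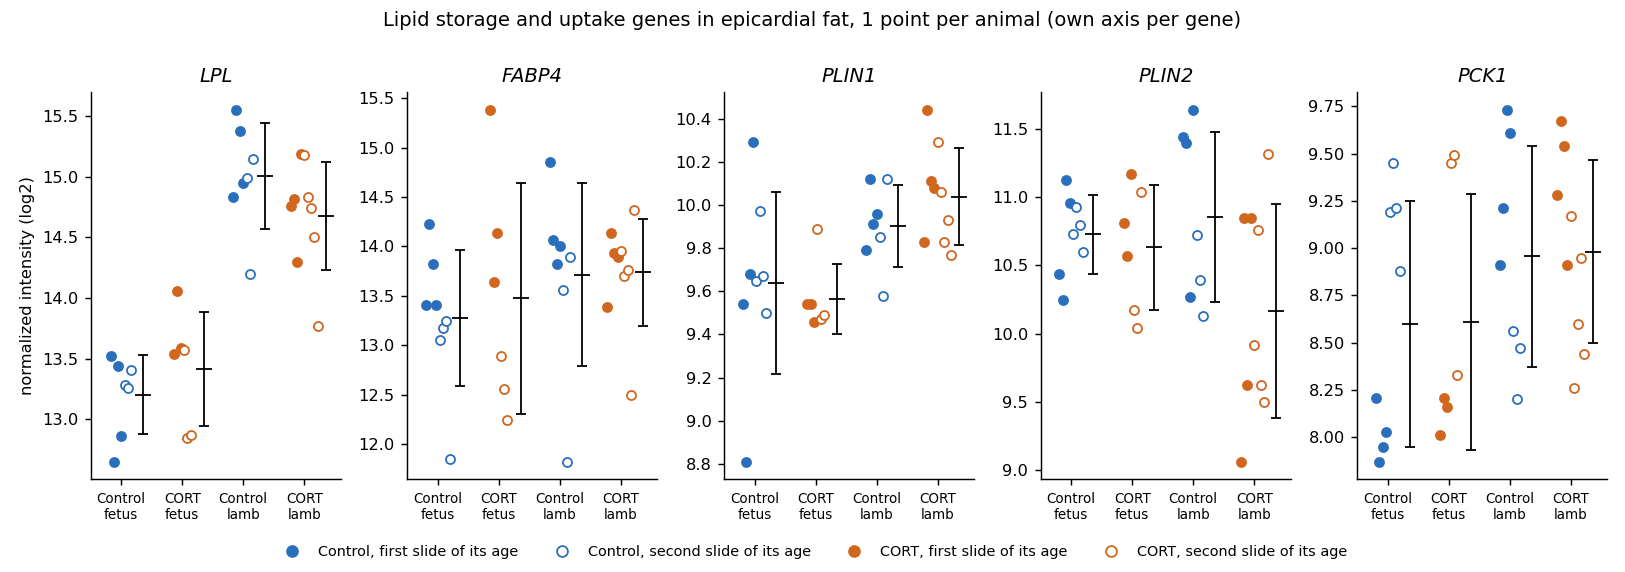
Normalized intensity (log2, own axis for each gene) of the probe standing for each gene, 1 point per animal, by group. Filled points are the first and open points the second slide of that age, and the bar beside each group is its mean with 1 SD. LPL in Control lambs lies wholly above Control fetuses, with means of 15.01 and 13.20, while the groups overlap in the other genes.

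FABP4 did not pass the test between the ages, and its animals were spread widely. In Control fetuses the carrier's level ran from 11.85 over a median of 13.33 to 14.23. In Control lambs it ran from 11.82 over a median of 13.89 to 14.85. The lowest values of both groups were thus nearly equal, and the ranges lay almost on each other. The difference was 0.44 (SE 0.38), with a 95% interval from -0.36 to 1.24 and an adjusted limma p of 0.378. Leaving out Control fetus 8, the lowest Control fetus at 11.85, gave 0.24. Leaving out Control lamb 6 moved the difference most: its FABP4 was 11.82, and the next Control lamb was at 13.56. Without that lamb the difference was 0.76 (SE 0.29) and passed, with an adjusted limma p of 0.0488. The same lamb had the lowest LPL of its group, at 14.20, the lowest PLIN1, at 9.58, and the lowest PCK1, at 8.20. It also had the highest mean of the striated muscle pair among Control lambs, at 12.48. Its mean of the adipocyte markers LEP, PPARG and CEBPB was the lowest of the Control lambs, at 9.95. The part of either marker set in these values was not tested.

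The droplet coat genes did not pass the test between the ages. PLIN1, the adipocyte coat protein, ran from 8.81 over 9.66 to 10.29 in Control fetuses and from 9.58 over 9.91 to 10.12 in Control lambs, so that every Control lamb lay within the range of the Control fetuses. The difference was 0.27 (SE 0.16, 95% interval -0.08 to 0.61), with an adjusted limma p of 0.208. PLIN2 ran from 10.25 over 10.76 to 11.13 in Control fetuses and from 10.13 over 10.72 to 11.64 in Control lambs. Its difference was 0.13 (SE 0.22, 95% interval -0.35 to 0.61), with an adjusted limma p of 0.679. The second probes gave 0.11 for PLIN1 and 0.21 for PLIN2.

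PCK1, of the path to glycerol 3-phosphate, overlapped between the ages as well. It ran from 7.87 over 8.54 to 9.45 in Control fetuses and from 8.20 over 8.91 to 9.73 in Control lambs. The difference was 0.36 (SE 0.29, 95% interval -0.26 to 0.97), with an adjusted limma p of 0.357.

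The 3 measured genes of the brown adipocyte list fell over the same ages, and UCP1, the uncoupling protein of heat-producing fat, fell by 4.19 (SE 0.35). COL3A1 and DCN, the measured genes of the fibroblast and matrix list, rose by 1.38 and 1.09. Of 4 measured macrophage markers 2 rose, CD14 by 0.28 and FCER1G by 0.85. Of 3 measured endothelial markers 1 passed, the VEGF receptor FLT1, which fell by 0.52 (SE 0.12), and PECAM1 and KDR differed by -0.12 and -0.34. LEP and CEBPB, of the adipocyte list, rose by 0.55 and 0.24, and PPARG differed by -0.42 without passing the test. Beside these counts, 41.6% of all tested probes passed between these ages, 20.3% as higher in lambs. The part of these cell type markers in the rise of LPL was not tested.

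None of the 5 genes passed the adjusted threshold between CORT and Control lambs, and the largest difference was in PLIN2. PLIN2 ran from 9.06 over 9.92 to 11.32 in CORT lambs and from 10.13 over 10.72 to 11.64 in Control lambs. Of the CORT lambs, 5 lay below every Control lamb and 4 lay within the Control range. The mean was 10.17 ± 0.79 (SD, n = 9) against 10.86 ± 0.63 (SD, n = 7), a difference of -0.69 (SE 0.33, 95% interval -1.38 to 0.00). The unadjusted limma p was 0.0510 and the adjusted p 0.9997, and the exact permutation test over 11440 splits gave p = 0.0783 (two-sided). The second PLIN2 probe differed by -0.65 (SE 0.32). PLIN2 is among the genes that the study itself discussed in these lambs, so its direction here is no independent evidence.

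The PLIN2 difference was not even over the slides. On slide 3, the mean of 4 CORT lambs lay under that of 4 Control lambs, 11.19, by a difference of -1.09. On slide 4, 5 CORT lambs averaged 10.22 against 10.42 in 3 Control lambs, a difference of -0.19. With slide as a block the difference was -0.66 (SE 0.34). Leaving out 1 lamb at a time moved it between -0.83 and -0.55, and no such fit passed the adjusted threshold.

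LPL, the gene that rose with age, ran from 13.77 over 14.76 to 15.19 in CORT lambs, with 7 of 9 below the Control lamb mean. Its difference from Control lambs was -0.33 (SE 0.20, 95% interval -0.76 to 0.10), with an unadjusted limma p of 0.121. CORT lamb 9, the lowest in LPL at 13.77, was the highest of its group in PLIN2, at 11.32, and in the striated muscle pair, at 12.75. Without it the LPL difference was -0.22 and the PLIN2 difference -0.83.

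The FABP4 means of the lamb groups nearly coincided, and the differences on the slides had opposite signs. The means were 13.74 in CORT lambs and 13.72 in Control lambs, with a 95% interval of the difference from -0.68 to 0.72. On slide 3 the difference was -0.35 and on slide 4, which held Control lamb 6, it was 0.57. PLIN1 differed by 0.13 (95% interval -0.08 to 0.35). PCK1 differed by 0.03 (95% interval -0.49 to 0.54), and by 0.24 on its second probe. At the adjusted threshold 0.0% of all probes passed in lambs, by limma. At an unadjusted limma p of 0.05 the share was 3.56% of all probes, and 0 of the 10 probes described here.

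None of the 5 genes passed between CORT and Control fetuses either. LPL ran from 12.85 over 13.55 to 14.06 in CORT fetuses, against 12.65 to 13.52 in Control fetuses. On this probe, where Control fetus 6 is missing, 4 of the 6 CORT fetuses lay above the highest Control fetus. CORT fetuses 1, 3 and 4 did so narrowly, at 13.54, 13.59 and 13.57. On A_70_P029921, with every animal, CORT fetus 1 at 13.00 lay below the highest Control fetus, at 13.07. The difference on A_70_P029922 was 0.21 (SE 0.20, 95% interval -0.22 to 0.64), and 0.27 on each of the other LPL probes. Within slides it was 0.61 on slide 1, which held Control fetus 2, and -0.22 on slide 2.

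FABP4 in CORT fetuses ran from 12.24 over 13.27 to 15.38, the widest range of any group and gene, an 8.84-fold span between animals. Its difference from Control fetuses was 0.20 (SE 0.45, 95% interval -0.76 to 1.16), and without CORT fetus 1, the highest animal, it was -0.18. PLIN1 differed by -0.07 (SE 0.17), PLIN2 by -0.10 (SE 0.18) and PCK1 by 0.01 (SE 0.32). In fetuses 0.0% of all probes passed the adjusted threshold by limma and 2.37% the unadjusted one, and of the 10 probes 0 passed either.

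The cortisol difference in lambs minus that in fetuses was -0.54 (SE 0.30) for LPL, with an unadjusted limma p of 0.0826, and -0.59 (SE 0.41) for PLIN2, with an unadjusted limma p of 0.159. It was -0.18 for FABP4, 0.21 for PLIN1 and 0.02 for PCK1. This comparison joins a difference in dose to one in age, which cannot be told apart. The schedule may differ as well: the lambs' ewes were infused overnight only, and the study describes its earlier infusions at 1 mg/kg/day as continuous. The comparison passed the adjusted threshold on 0.0% of all probes, and 2.05% passed the unadjusted one, again with 0 of the 10 probes.

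**Figure D2:**
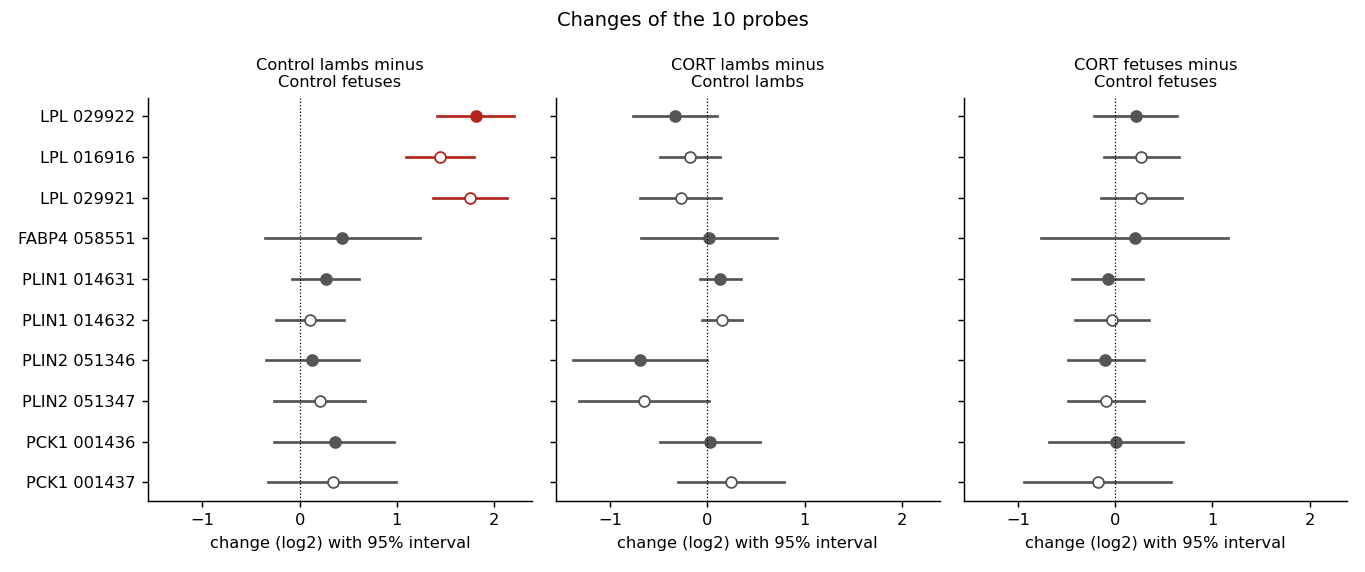
Change of each of the 10 probes (log2, horizontal axis) with its 95% interval in 3 comparisons. Filled points are the probes that stand for a gene, open points the other probes, labelled by the end of the probe name, and red marks an adjusted limma p under 0.05. Only the 3 LPL probes, between 1.44 and 1.81 in Control lambs minus Control fetuses, are red.

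By mean, the groups stood in the order Control fetus, CORT fetus, CORT lamb and Control lamb for LPL, at 13.20, 13.41, 14.68 and 15.01. Both steps within an age failed the test, and the step from CORT fetus to CORT lamb, not tested here because of the doses, had overlapping animals: CORT lamb 9 at 13.77 lay below CORT fetus 2 at 14.06. PLIN1 had CORT fetus lowest, at 9.57, followed by Control fetus, Control lamb and CORT lamb at 9.64, 9.90 and 10.04. PLIN2 had CORT lamb lowest, at 10.17, then CORT fetus, Control fetus and Control lamb at 10.63, 10.73 and 10.86. In FABP4 the 4 means lay between 13.27 and 13.74, and in PCK1 between 8.60 and 8.98. No neighbours that were tested passed. The neighbours left untested, a CORT group next to a group of the other age, had overlapping animals wherever they occurred.

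The larger differences of PCK1 lay between slides. The comparison of slides was chosen after the values were seen. Among fetuses the 7 animals of slide 1 lay between 7.87 and 8.21, and the 7 of slide 2 between 8.33 and 9.49, without overlap. Slide 2 was higher by 1.08 (SE 0.16) with treatment in the same limma fit, an adjusted p of 0.00139. Among lambs slide 3 ran from 8.91 to 9.73 and slide 4 from 8.20 to 9.17, a difference of -0.79 (SE 0.16) with an adjusted limma p of 0.00499. On the second PCK1 probe these slide differences were 0.99 and -0.66, with adjusted limma p of 0.0276 and 0.0604, so that the lamb difference did not pass there. The fetal slides overlapped on that probe, at 7.72 to 8.15 on slide 1 and 7.48 to 9.44 on slide 2. The share of all probes without overlap between slides was not counted. Inside slides 1 to 4, CORT minus Control was 0.11, -0.09, -0.01 and 0.28, and on the second probe -0.00, -0.37, 0.29 and 0.37.

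FABP4 also followed the slides among fetuses, in the opposite direction to PCK1. Slide 1 ran from 13.41 to 15.38 and slide 2 from 11.85 to 13.25, so no fetus of slide 2 reached the lowest of slide 1. The difference was -1.29 (SE 0.30), or 2.44-fold, with an adjusted limma p of 0.0211. Among lambs it was -0.58 (SE 0.31) with an adjusted limma p of 0.273. Inside fetal slides CORT minus Control in FABP4 was 0.67 on slide 1 and -0.27 on slide 2.

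LPL, PLIN1 and PLIN2 did not pass the slide comparison at either age. Of the 10 probes, 3 passed among fetuses, where 7.86% of all probes did, and 1 passed among lambs, where 8.55% did. The 3 were the FABP4 probe and both PCK1 probes, which share 59 bases and are hardly separate measurements. What else differed between the animals of a slide is not given by the labels, and whether the arrays or the animals underlie these differences was not tested.

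**Figure D3:**
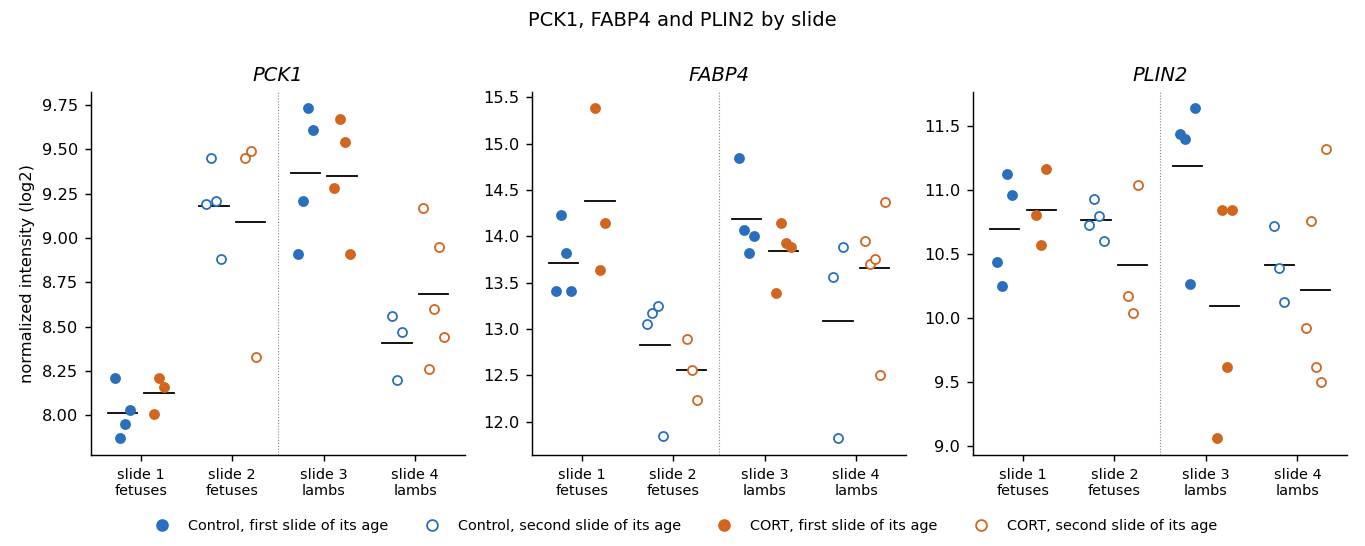
Normalized intensity (log2) of the probes standing for PCK1, FABP4 and PLIN2 by slide, 1 point per animal, Control in blue and CORT in orange, with a line at each mean. PCK1 lies at 8.21 or lower in all fetuses of slide 1 and at 8.33 or higher in all of slide 2, FABP4 separates the same slides the other way, and PLIN2 in lambs differs by treatment mainly on slide 3, by -1.09.

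Probes of a gene agreed in most animals but not all. The deviations of the PLIN2 probes from their group means had a Pearson r of 0.998 over 30 animals, and their difference had an SD of 0.07. The overlapping LPL probes had r = 0.971 over 29 animals. A_70_P016916 had r = 0.909 with A_70_P029922. The PCK1 probes, 1 base apart, had r = 0.945, and 2 animals left their common line: in CORT fetus 6 they read 8.33 and 7.48, and in Control lamb 1 they read 8.91 and 8.13. A difference of that size lies on the same order as the spread of PCK1 within a group, 0.48 to 0.68 (SD).

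Relations between the 5 genes were read as deviations of each animal from the mean of its group. Of 20 relations, 10 pairs in each age, 0 passed an adjusted permutation p of 0.05 by Pearson's r. The strongest in lambs was LPL with PLIN1, with r = 0.646 and Spearman's rho = 0.597 over 16 lambs (permutation p = 0.00939 and 0.0212, adjusted 0.188 and 0.147). Without the 2 lambs farthest in LPL, r was 0.536, and within slides it was 0.262 on slide 3 and 0.851 on slide 4. FABP4 with PLIN2 followed, with r = 0.530 and rho = 0.588 (permutation p = 0.0201 and 0.0220, adjusted 0.201 and 0.147). That relation was 0.590 on slide 3 and 0.420 on slide 4, and 0.596 without the 2 lambs farthest in FABP4. LPL and PLIN2 had r = -0.0563 in lambs.

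By Spearman's rho 1 of the 20 relations passed, FABP4 with PCK1 in fetuses, with an adjusted permutation p of 0.0472. Both genes, on the probes standing for them, split the fetuses by slide. The relation is therefore given within slides, where it had opposite signs: r = -0.801 in the 7 fetuses of slide 1 and r = 0.613 in the 7 of slide 2. Taken as deviations from the mean of treatment group and slide, the relation did not pass, with rho = 0.0857 and an adjusted permutation p of 0.858.

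The named genes most like each of the 5 between animals were searched among 758 others, as the Pearson r of deviations from the group mean over 29 animals for LPL and 30 for the other genes. These correlations are a description, and groups of animals share a slide. LPL was most like RPA1 (r = 0.794), a DNA-binding protein of replication and repair, SCD (r = 0.767), the desaturase that makes monounsaturated fatty acids, and CBX5 (r = 0.694), a heterochromatin protein. LPL with SCD reached 0.666 in fetuses and 0.846 in lambs, and between 0.646 and 0.933 on each of the 4 slides.

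Among the genes most like PLIN1 were IDH1 (r = 0.736), which supplies NADPH in the cytosol, and PPARG (r = 0.696), the transcription factor of fat cell formation. PLIN1 with PPARG lay between 0.662 and 0.901 on every slide. FABP4 was most like RABGGTB (r = 0.783) and EEF1E1 (r = 0.713), followed by its own relative FABP5 (r = 0.686). On slides 1 to 4, RABGGTB had r = 0.818, 0.381, 0.625 and 0.822 with FABP4. EEF1E1 had 0.593, 0.375, 0.547 and 0.695 there, and FABP5 had 0.701, 0.452, 0.734 and 0.751. Like FABP4, EEF1E1 passed the slide comparison in fetuses, at -0.33. RABGGTB passed it in lambs, at -0.35. PLIN2 had weaker partners, an array entry named OVAR (r = 0.548) and the innate immune receptors TLR3 (r = 0.540) and TLR6 (r = 0.535). These were uneven over the 4 slides: r ran from 0.11 to 0.79 for OVAR, 0.21 to 0.83 for TLR3 and 0.29 to 0.61 for TLR6.

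PCK1 had the closest partners of the 5 and none of them is a lipid gene: SSTR5 (r = 0.921), a somatostatin receptor, CRHR1 (r = 0.921), the receptor of corticotropin-releasing hormone, and AANAT (r = 0.896), the enzyme of melatonin synthesis. All 3 passed the same slide comparisons as PCK1, in the same directions. Slide 2 minus slide 1 was 0.53 for SSTR5, 0.55 for CRHR1 and 0.90 for AANAT, and slide 4 minus slide 3 was -0.39, -0.37 and -1.14. Within slides PCK1 and CRHR1 had r = 0.871, 0.984, 0.735 and 0.268 on slides 1 to 4. With SSTR5 the values were 0.62, 0.93, 0.90 and 0.64, and with AANAT 0.77, 0.99, 0.91 and 0.56.

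Other genes of the lipid pathways were read from 4 lists of 96 genes, of which 19 could be named and tested on this array. Of these, 6 changed between Control fetuses and Control lambs, 2 up and 4 down, and 13 did not pass, where 41.6% of all tested probes passed. With slide as a random block 5 passed: SCD5 did not, at 0.68 with an adjusted limma p of 0.0731. In that fit 4399 of the 12872 probes passed, against 5351 in the main fit. Of the fatty acid uptake and transport list, on which LPL and FABP4 act, 3 of 34 genes were tested and 0 passed: FABP5 differed by -0.11, CAV1 by -0.00 and ALB by 2.48 (SE 1.28). Among all tested probes the median change was -0.01.

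Of the droplet coat and lipolysis list, 6 of 23 genes were tested and 1 changed. PLIN5, a perilipin of tissues that burn fat, fell by 0.71 (SE 0.12) with an adjusted limma p of 0.000130, while its relatives PLIN1 and PLIN2 differed by 0.27 and 0.13. The list's median change was -0.09. Of the triglyceride assembly list 1 of 22 genes was tested: DGAT1, the enzyme of the last step to triglyceride, fell by 1.44 (SE 0.18), with an adjusted limma p of 9.80e-06.

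The fatty acid synthesis list, with 9 of 17 genes tested, split both ways around a median change of -0.29. SCD rose by 1.27 (SE 0.38) and SCD5, another desaturase, by 0.69 (SE 0.24). ME1, the NADPH-forming malic enzyme, fell by 1.06 (SE 0.09) and ACSS2, which activates acetate, by 0.60 (SE 0.12). Where these genes had a second probe, it moved the same way and passed as well.

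With maternal cortisol 0 of the 19 genes passed the adjusted threshold in lambs or in fetuses, by limma. At the unadjusted threshold 2 passed in lambs, both of the synthesis list, where 3.56% of all probes did, and 0 in fetuses, where 2.37% did. In lambs they were ACLY, which makes cytosolic acetyl-CoA, at -0.85 (SE 0.32), and ME1, at -0.33 (SE 0.15). Both are named here because they were the only such genes. ACLY, like PLIN2, was reported by the study as lower in the EAT of these CORT lambs.

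**Figure D4:**
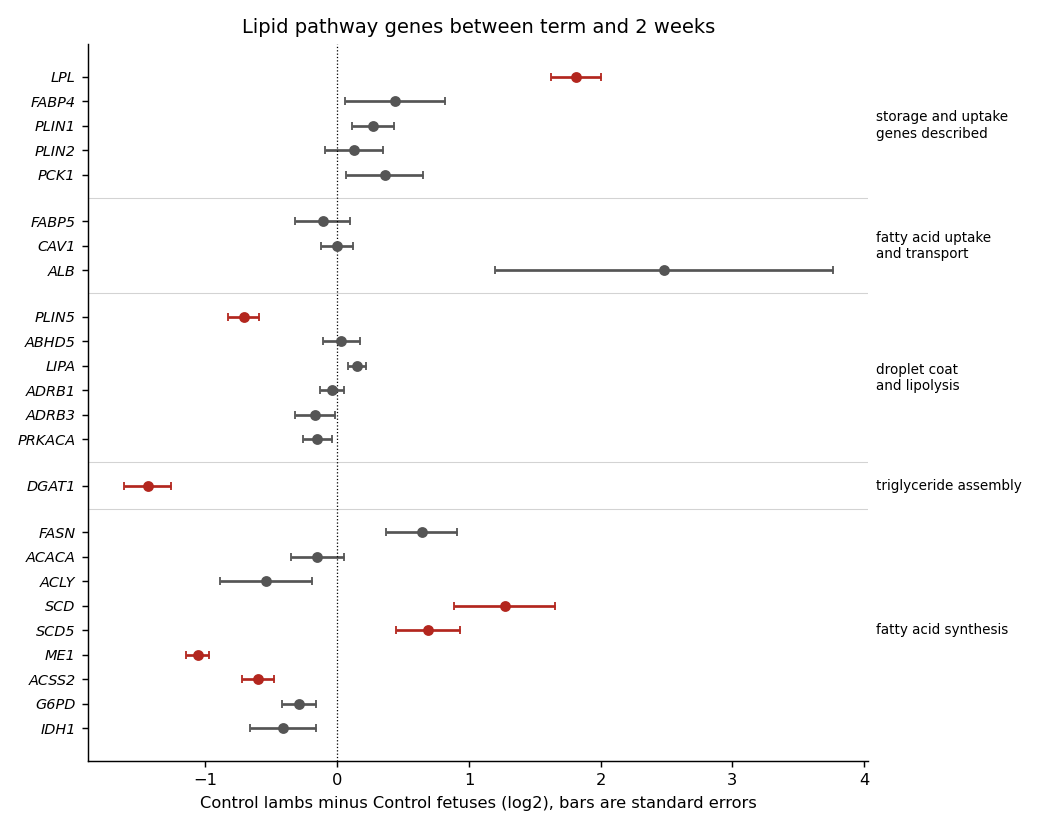
Control lambs minus Control fetuses (log2, horizontal axis) with the standard error for the 5 storage and uptake genes and the 19 pathway genes that could be tested, by list. Red marks an adjusted limma p under 0.05. LPL at 1.81 and SCD at 1.27 lie to the right, and DGAT1 at -1.44 and ME1 at -1.06 to the left.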

How the data were processed

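The deposited scanner files give, per the file headers, a mean foreground and a median local background intensity for every spot (Feature Extraction 10.1.1.1). The authors also deposited a background-corrected, quantile-normalized log2 matrix made with limma. Its 16 lamb columns followed the scanner values (Spearman rho 0.99956 to 0.99983) and served as an alternative, and its 14 fetal columns did not (-0.0084 to -0.0038) and were not used.

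Intensities were corrected with limma 3.58.1 in R 4.3.3 (normexp, offset 50), spots marked as outliers were masked (3 to 17 an array), and the 30 arrays were quantile normalized together. Median foreground per array was 132 to 240 over a background of 34 to 46, and the number of arrays limits the precision. Probes at least 1.1 times the 95th percentile of 77 negative controls on at least 6 arrays were tested.

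Each comparison was fitted with lmFit and eBayes on its own groups, all 4 groups for the difference of cortisol effects, with Benjamini-Hochberg adjustment. Single probes had exact two-sided permutation tests, and relations 100000 permutations within treatment (NumPy 2.4.6). Scripts were tested on simulated data. Names came from the array's annotation and a reference gene table (assembly ARS-UI_Ramb_v3.0). The genes and lists were chosen with earlier results of these data known. Named were all probes of the 5 genes, up to 2 rises and 2 falls per list past the threshold with age, and the 3 most similar genes, of which 1 is not reported here. Alternatives were other background corrections, normalizations, filters, thresholds, variance models, blocks by slide or replicate number, gene means and each animal left out.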

Additional observations from a re-analysis of the deposited data

Results flagged for a closer look

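In 3 of the 40 probe and group combinations, 1 animal lay further from the rest than Dixon's 95% limit allows, which chance gives in about 1 of 20. LPL on A_70_P016916 was low in Control fetus 2, at 12.57 against 13.18 in the next fetus, a gap of 0.599 of the group's range. This is the fetus with the high TNNC2. FABP4 was low in Control lamb 6, at 11.82 against 13.56, a gap of 0.575 of the range. PLIN1 on A_70_P014631 was high in CORT fetus 4, at 9.89 against 9.54, a gap of 0.799 of the range.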

How the results depend on the processing

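LPL was the only one of the 5 genes past the adjusted threshold with age under every alternative other than leaving out an animal, and its change stayed between 1.66 and 1.98. With each animal left out, the count of genes past it with age was 1 to 2, the second being FABP4 without Control lamb 6. In the cortisol comparisons it was 0 under all alternatives. The replicate numbers were not taken as pairs, as same-numbered animals did not all correlate (-0.227 to 0.244 with age, -0.0634 to 0.413 in lambs, -0.191 to 0.414 in fetuses). In lambs 4 of 7 numbers correlated best with their own, against 0 of 7 with age and 1 of 6 in fetuses. Same-numbered lambs were always on the same slide, so a pairing and a shared slide cannot be told apart. With the replicate block 1 gene passed with age, LPL at 1.98, and 0 with cortisol, where PLIN2 in lambs was -0.76 (SE 0.25) with an adjusted limma p of 0.9975. Of the 20 relations between genes 0 passed by Pearson's r under each of the 3 other settings. By Spearman's rho 1 passed, FABP4 with PCK1 in fetuses, and under those settings 0 did, its adjusted permutation p moving from 0.0472 to 0.0509 with 75th percentile scaling, 0.0754 with the corrected signal and 0.858 with slide removed. Of the lipid pathway genes 5 passed with age with slide as a random block and 8 with array weights, against 6. Of the 12872 probes 4399 and 5879 passed in these fits, against 5351. At the unadjusted threshold 2 lipid pathway genes passed in lambs and 1 for the difference of cortisol effects.

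Signs turned only in changes near 0 and past no threshold. With cortisol in lambs, FABP4 was -0.10 with array weights and -0.01 in the deposited matrix, and PCK1 -0.01 with the scanner's corrected signal and -0.12 with array weights. In fetuses, PCK1 was -0.01 with the corrected signal and with cyclic loess, -0.25 with array weights and -0.09 as the mean of both probes, and FABP4 -0.04 with the replicate block. For the difference of effects, PCK1 was -0.01 with 75th percentile scaling. With single animals left out, FABP4 ranged from 0.24 to 0.76 with age, -0.29 to 0.21 with cortisol in lambs, -0.18 to 0.45 in fetuses and -0.50 to 0.20 for the difference. PCK1 ranged from -0.10 to 0.16, -0.17 to 0.13 and -0.11 to 0.19 in the last 3, and in fetuses PLIN1 ranged from -0.19 to 0.02 and PLIN2 from -0.20 to 0.02. The cause was not tested. The slide differences of PCK1 (1.08 to 1.36 in fetuses, and in lambs) and of FABP4 in fetuses (-1.29 to -1.21) passed under every normalization, an alternative added after the values were seen.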
